A study of Mus musculus with 9 samples.

Results

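The genes described are the mouse receptors for the constant (Fc) part of immunoglobulin G and their shared signalling chain: Fcgr1, Fcgr3, Fcgr4, Fcgr2b and Fcer1g. They were chosen by gene name, and all 5 were found among the 54532 genes of the expression table. RNA came from wild-type primary bone marrow-derived macrophages of the mouse kept for 48 h on 1 of 3 implant surfaces. These were Ta3, the tantalum-bearing metallic glass Zr58Cu25Al14Ta3, then Ta0, the glass Zr61Cu25Al14 without tantalum, and last cpTi, commercially pure titanium, the metal the glasses were set against. Each surface had 3 libraries of polyA RNA, and cells on other surfaces or on plastic are not analysed here. Lower on a glass and higher on cpTi therefore cannot be told apart. The labels name 1 genotype, wild type, and no other agent. The tissue label of the samples reads xenograft, which was not used for grouping. The labels do not state whether a library stands for its own animal or culture. The p-values thus cover the spread among libraries alone, and that spread may be technical. The table's columns carry short material names, and the tantalum column was read as Ta3 and the zirconium column as Ta0 by composition. A reversed reading would swap the results of the glasses.

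Fc gamma receptors let macrophages bind particles and complexes coated with IgG, take them up and signal. In the mouse, the proteins of Fcgr1, Fcgr3 and Fcgr4 are activating receptors that depend on the common gamma chain, the product of Fcer1g, whose cytoplasmic ITAM motif recruits the kinase Syk. The protein of Fcgr2b carries its own inhibitory motif, an ITIM, recruits the lipid phosphatase SHIP1 (Inpp5d), and counteracts the activating receptors when both bind the same IgG. The balance of the activating and inhibitory receptors is known to set how strongly a macrophage answers IgG.

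All positions below are on the mouse build GRCm38. Fcgr1 (ENSMUSG00000015947), the high-affinity IgG receptor, lies at chr3:96282909-96293969 on the minus strand. Fcgr2b (ENSMUSG00000026656), the inhibitory receptor, lies at chr1:170958617-170976547 on the minus strand. Fcgr4 (ENSMUSG00000059089), an activating receptor, lies at chr1:171018920-171029761 on the plus strand. Fcgr3 (ENSMUSG00000059498), a low-affinity activating receptor, lies at chr1:171051174-171064935 on the minus strand. Fcer1g (ENSMUSG00000058715), the signalling chain, lies at chr1:171229572-171234365 on the minus strand. The 4 genes on chromosome 1 fall within 275.749 kb, and all 5 had the same position in the GENCODE M21 annotation. The model length in the table ran from 874 bases for Fcer1g to 5790 bases for Fcgr2b, with 2589 for Fcgr1, 1736 for Fcgr3 and 1256 for Fcgr4.

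The 150 bases before a RefSeq start of each gene are shown because sites for the myeloid factor PU.1 (Spi1) are a known control of Fc gamma receptor genes. The sequences are from RefSeq (GRCm38.p6), written 5′ to 3′ on the strand of the gene. The RefSeq start equals the start of the span given above for Fcgr1. It lies 5532 bases inside that span for Fcgr3, 476 for Fcgr2b, 16 for Fcer1g and 6 for Fcgr4. Capitals mark matches to GAGGAA, a PU.1 box, which reads TTCCTC on the opposite strand.
Fcgr1, chr3:96293970-96294119, minus strand: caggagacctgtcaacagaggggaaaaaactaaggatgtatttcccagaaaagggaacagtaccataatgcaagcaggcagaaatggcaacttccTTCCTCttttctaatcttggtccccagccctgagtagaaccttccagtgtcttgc
Fcgr3, chr1:171059404-171059553, minus strand: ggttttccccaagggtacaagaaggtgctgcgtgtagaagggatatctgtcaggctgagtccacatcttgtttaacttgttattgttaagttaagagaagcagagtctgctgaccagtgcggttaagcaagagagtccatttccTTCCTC
Fcgr4, chr1:171018776-171018925, plus strand: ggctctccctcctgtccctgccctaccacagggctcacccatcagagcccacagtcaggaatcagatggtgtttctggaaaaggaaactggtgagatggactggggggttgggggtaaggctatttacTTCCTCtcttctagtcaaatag
Fcgr2b, chr1:170976072-170976221, minus strand: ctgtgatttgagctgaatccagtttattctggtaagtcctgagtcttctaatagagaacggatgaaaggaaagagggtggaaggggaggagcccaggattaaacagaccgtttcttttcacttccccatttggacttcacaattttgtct
Fcer1g, chr1:171234350-171234499, minus strand: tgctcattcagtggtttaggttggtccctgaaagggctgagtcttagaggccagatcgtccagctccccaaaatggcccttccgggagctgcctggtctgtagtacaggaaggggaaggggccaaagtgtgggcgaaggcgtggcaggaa

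The search covered both strands of 300 bases around each start. The PU.1 box was matched on the opposite strand of all 3 activating receptor genes, at -55 to -50 in Fcgr1, -6 to -1 in Fcgr3 and -22 to -17 in Fcgr4, counted from the start, and 28.3% of all 32851 RefSeq windows of this length held it. Neither Fcgr2b nor Fcer1g had a match in its window. Fcgr3 has 2 windows in the table, both inside its span, and the one shown is the first. A match describes the letters and is no evidence of binding.

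Fcgr3 and Fcgr2b also share sequence, which bears on how reads can be assigned to them. Of the stretches of 50 bases in Fcgr3 transcripts, 9.58% also occurred in Fcgr2b transcripts, and 2.92% of those of Fcgr2b occurred in Fcgr3. Fcgr2b shared 0.528% with another gene model, Gm4117. Fcgr1, Fcgr4 and Fcer1g shared none with any other gene. The longest stretch in common was 129 coding bases, bases 263 to 391 of the 801 coding bases of Fcgr3 in GENCODE M21, shown because a read inside it cannot be given to one gene.
Fcgr3 and Fcgr2b, shared coding stretch: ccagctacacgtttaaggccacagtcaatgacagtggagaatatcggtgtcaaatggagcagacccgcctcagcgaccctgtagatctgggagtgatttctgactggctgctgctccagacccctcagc

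The levels of Fcgr3 and Fcgr2b are uncertain to that extent. No strand setting is given in the sources used here, and the antisense model Gm38204, which overlaps Fcgr2b, reached at most 0.225 FPKM.

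The deposited unit was FPKM (fragments scaled to gene length and to a library scale). Levels within a library can thus be set side by side per length. Whole reads could be rebuilt from the FPKM, with totals of 15517877 to 18689963 per library. The library scale behind the FPKM was not these totals. It ran from 9078170 reads in Ta0 replicate 1, with 15527155 rebuilt, to 21911078 in cpTi replicate 3, with 18203494. FPKM totals ran from 305491 to 1251565. The median over genes of a library's FPKM relative to the gene's geometric mean was 0.98 to 1.03. FPKM between libraries is therefore not scaled by read depth alone. Libraries also differed within a surface, and the part of the surfaces in the differences between libraries was not tested. The mitochondrial share of reads lay wholly lower on Ta3 than on cpTi, while Ta0 and cpTi overlapped. Ta0 replicate 1 and Ta3 replicate 3 had 18.3% and 16.9% of their reads in ribosomal protein genes, against 2.22% to 10.3% in the other 7 libraries, and they had 15678 and 13466 genes above 0, against 18156 to 20635. A length slope was computed for each library: the change in its log2 deviation from the gene mean per doubling of gene length. It ran from -0.21 to 0.27 on Ta3, from -0.23 to 0.03 on Ta0 and from -0.06 to 0.21 on cpTi, and below 0 it means that short genes read high.

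The labelled cell type fitted the markers. All 10 macrophage markers passed the filter of at least 1 FPKM in at least 3 libraries, and their summed FPKM was 11350 to 40370 on Ta3, 23601 to 40553 on Ta0 and 17133 to 29704 on cpTi. Most of that sum was Lyz2 (lysozyme). Without it the other 9 summed to 1732 to 2397 FPKM on Ta3, 1519 to 1647 on Ta0 and 1461 to 1852 on cpTi. Of the 10 markers, 7 had a log2 fold change below 0 on Ta3 against cpTi, 6 on Ta0 and 7 on both glasses pooled. Adgre1 (F4/80) had 78.6, 93.3 and 91.9 FPKM on Ta3 and 78.1, 97.6 and 91.5 FPKM on Ta0, against 149, 163 and 161 FPKM on cpTi. It did not overlap between either glass and cpTi, at -0.84 on Ta3 and -0.82 on Ta0 (adjusted p = 0.245 and 0.294 in limma). Csf1r, the receptor for the growth factor CSF1, averaged 82.4 ± 31.1 FPKM on Ta3, 61.1 ± 8.88 on Ta0 and 117 ± 25.0 on cpTi (SD, n = 3 each). Cd14, the co-receptor for lipopolysaccharide, averaged 129 ± 60.1 FPKM on Ta3, 154 ± 19.3 on Ta0 and 219 ± 66.1 on cpTi (SD, n = 3 each). Other markers went the other way. Cd68 averaged 1349 ± 280 FPKM on Ta3, 1073 ± 47.1 on Ta0 and 896 ± 160 on cpTi, without overlap between Ta3 and cpTi. Laptm5 averaged 208 ± 76.5 FPKM on Ta3, 134 ± 12.9 on Ta0 and 125 ± 46.0 on cpTi (SD, n = 3 each).

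Neutrophils, NK cells, B cells and mast cells also use these receptors or the chain. Of 11 neutrophil markers 4 passed, with summed FPKM of 30.9 to 438 on Ta3, 125 to 451 on Ta0 and 91.5 to 305 on cpTi. They were S100a8 (9.55 to 369 FPKM over all libraries), Retnlg (2.66 to 53.5), S100a9 (0.622 to 20.3) and Csf3r (8.70 to 18.9). The defining Ly6g was listed at 0 in all 9 libraries. Of 8 mast cell and basophil markers 3 passed (8.27 to 21.2 on Ta3, 11.8 to 24.5 on Ta0, 9.88 to 14.6 on cpTi). They were Cma1, Tpsb2 and Cpa3, while Mcpt8 was at 0 in all 9. Of 7 NK cell markers 1, Gzma, passed (1.24 to 4.07 on Ta3, 0.650 to 4.13 on Ta0, 2.24 to 5.44 on cpTi for the list). Ncr1 reached at most 0.563 FPKM. Of 6 B cell markers 2 passed (3.39 to 12.3 on Ta3, 5.56 to 10.8 on Ta0, 2.45 to 3.96 on cpTi). T cell markers passed in 0 of 6 cases (1.14 to 3.62 on Ta3, 1.38 to 3.41 on Ta0, 0.895 to 1.38 on cpTi). The monocyte (5 of 6), dendritic cell (2 of 8) and fibroblast (5 of 6) lists summed to 83.0 to 244, 19.1 to 34.8 and 35.9 to 43.4 FPKM on Ta3, to 160 to 192, 17.8 to 22.6 and 29.5 to 30.4 on Ta0, and to 128 to 271, 7.90 to 16.8 and 27.6 to 49.8 on cpTi. No marker of these lists was called in any comparison without a covariate, and the part of other cells and of the macrophage markers in the results below was not tested. In such bulk RNA, fewer cells of a type and less RNA per cell cannot be told apart.

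The signalling chain was by far the most abundant of the 5 transcripts. Fcer1g had 1208, 574 and 1699 FPKM in Ta3 libraries 1 to 3, 2977, 995 and 1163 FPKM in Ta0 libraries and 997, 1555 and 682 FPKM in cpTi libraries. Ta0 replicate 1 stood highest and Ta3 replicate 2 lowest, a 5.19-fold span, and the surfaces overlapped. Its mean was 1160 ± 564 FPKM on Ta3, 1712 ± 1099 on Ta0 and 1078 ± 442 on cpTi (SD, n = 3 each).

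Among the activating receptors, Fcgr3 had 348, 234 and 759 FPKM on Ta3, 566, 456 and 562 FPKM on Ta0 and 409, 566 and 304 FPKM on cpTi. Its highest and lowest libraries were both on Ta3, and the surfaces overlapped. Fcgr4, which binds complexes of certain IgG subclasses, had 81.1, 37.9 and 133 FPKM on Ta3, 138, 82.1 and 122 FPKM on Ta0 and 107, 156 and 71.7 FPKM on cpTi. Again Ta3 replicate 2 was lowest, and the highest library was cpTi replicate 2. Fcgr1 had 37.1, 24.1 and 63.1 FPKM on Ta3, 59.3, 43.9 and 54.1 FPKM on Ta0 and 57.9, 70.3 and 44.8 FPKM on cpTi. It was the least abundant of the 5 in every library, highest in cpTi replicate 2 and lowest in Ta3 replicate 2.

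Inhibitory Fcgr2b had 72.3, 48.8 and 98.5 FPKM on Ta3, 103, 85.2 and 109 FPKM on Ta0 and 110, 141 and 83.6 FPKM on cpTi. It was highest in cpTi replicate 2 and lowest in Ta3 replicate 2, and the surfaces overlapped. Group means were 73.2 ± 24.9 FPKM on Ta3, 99.0 ± 12.3 on Ta0 and 111 ± 28.7 on cpTi for Fcgr2b, and 41.4 ± 19.9, 52.4 ± 7.82 and 57.7 ± 12.8 FPKM on Ta3, Ta0 and cpTi for Fcgr1 (SD, n = 3 each). They were 447 ± 277 FPKM on Ta3, 528 ± 62.1 on Ta0 and 426 ± 132 on cpTi for Fcgr3, and 84.0 ± 47.6 FPKM on Ta3, 114 ± 28.6 on Ta0 and 112 ± 42.6 on cpTi for Fcgr4.

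**Figure D1:**
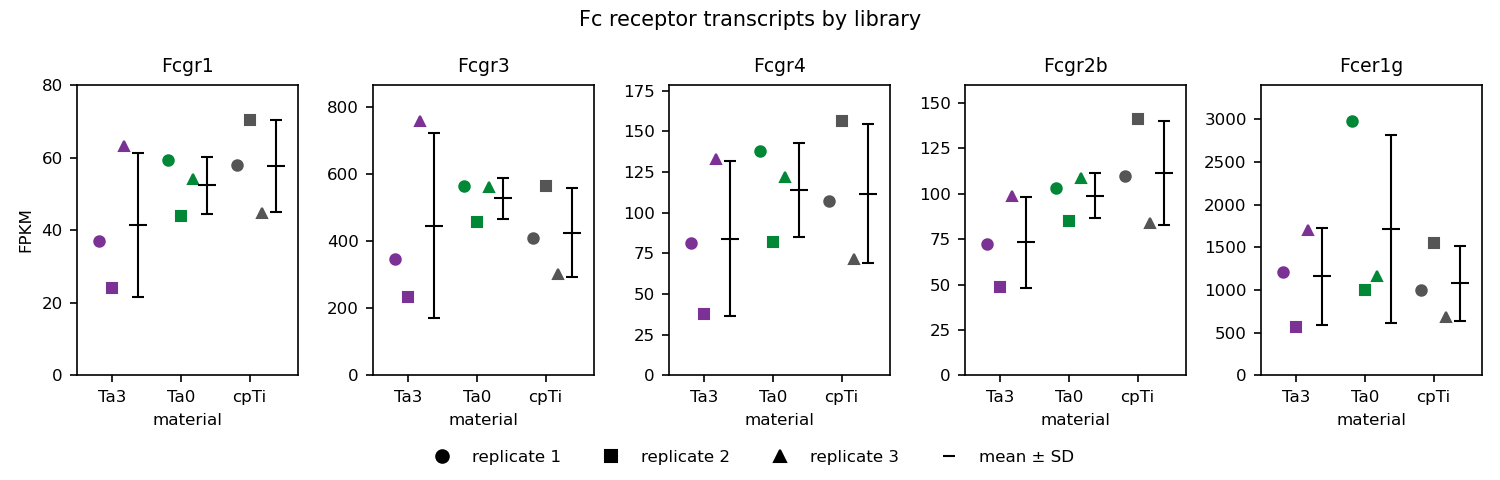
FPKM of the 5 genes in each library (points, marked by replicate) with the mean and SD of each surface, in the order Ta3, Ta0, cpTi. The surfaces overlapped for every gene, and Ta3 replicate 2 was the lowest library for all 5.

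The order of the levels was the same in 9 of 9 libraries for Fcer1g, Fcgr3 and Fcgr1: the chain first, then Fcgr3, with Fcgr1 last. Between them, Fcgr4 lay above Fcgr2b in 5 libraries and below it in 4, so those neighbours could not be ordered. Reads behind the values were 10814 to 23624 per library for Fcer1g, 8748 to 16208 for Fcgr3, 5429 to 13456 for Fcgr2b, 1027 to 3241 for Fcgr4 and 1344 to 3001 for Fcgr1, so the spread between libraries, not counting, limits the precision. Summed, the 5 genes took 0.225%, 0.152% and 0.233% of the reads in Ta3 libraries, 0.264%, 0.245% and 0.258% in Ta0 libraries and 0.269%, 0.320% and 0.218% in cpTi libraries.

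By FPKM, the spread within a surface followed the same libraries for all 5 genes. On each of the 3 surfaces, the library with the largest length slope (Ta3 replicate 2, Ta0 replicate 2 and cpTi replicate 3) had the lowest FPKM of every one of the 5 genes. The library with the smallest length slope (Ta3 replicate 3, Ta0 replicate 1 and cpTi replicate 2) had the highest, save for Fcgr2b on Ta0, where replicate 3 was higher. The long Fcgr2b moved with the short Fcer1g in this respect. By share of reads the order differed on both glasses and held on cpTi. Ta0 replicate 1 was then the lowest Ta0 library for Fcgr1 (0.00898%), Fcgr3 (0.0574%), Fcgr4 (0.0101%) and Fcgr2b (0.0350%). It stayed the highest for Fcer1g (0.152%). On Ta3, replicate 1 was the highest for Fcgr2b (0.0414%) and Fcer1g (0.104%). Whether the length slope or the library scale caused these shifts was not tested.

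On Ta3 against cpTi, the study's comparison of the tantalum glass with the titanium, no Fc receptor gene was called. The fit was limma on log2(FPKM + 1) over all 10858 genes that passed the filter, with Benjamini-Hochberg adjustment and a call at an adjusted p under 0.05. All 5 genes passed the filter, 0 of 5 were called and 0.479% of all genes tested were. Fcgr2b had a log2 fold change of -0.62 (SE 0.32, 95% interval -1.35 to 0.10, adjusted p = 0.772), the largest of the 5 in size. For Fcgr1 it was -0.55 (SE 0.35, interval -1.35 to 0.25, adjusted p = 0.861), and for Fcgr4 -0.51 (SE 0.48, interval -1.61 to 0.59, adjusted p = 0.943). Values near 0 were found for Fcgr3, at -0.06 (interval -1.14 to 1.02), and for Fcer1g, at 0.05 (interval -1.38 to 1.48). These intervals leave room for changes above 2-fold in Fcgr1, Fcgr2b and Fcgr4 downward and in Fcgr3 and Fcer1g in both directions. The median over the 5 was -0.51, against 0.02 over all genes tested.

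On Ta0 against cpTi, which asks the same of the glass without tantalum, 0 of 5 were called and 0.424% of all genes tested were. Fcer1g had the largest log2 fold change, 0.57 (SE 0.63, interval -0.86 to 1.99, adjusted p = 0.762 in limma), with Fcgr3 at 0.35 (interval -0.73 to 1.43). Fcgr4 was at 0.07 (interval -1.04 to 1.17), Fcgr1 at -0.12 (interval -0.92 to 0.67) and Fcgr2b at -0.14 (interval -0.87 to 0.58). The median of the 5 was 0.07, against -0.00 over all genes. With libraries set to a common FPKM total, the median of all genes moved to -0.48, and relative to it Fcer1g was at 0.43, Fcgr3 at 0.21, Fcgr4 at -0.06, Fcgr1 at -0.25 and Fcgr2b at -0.27. This comparison and the preceding one share the cpTi libraries.

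With both glasses pooled, 0 of 5 were called and 0.728% of all genes were, and the log2 fold changes were -0.34 for Fcgr1, -0.38 for Fcgr2b, -0.22 for Fcgr4, 0.14 for Fcgr3 and 0.31 for Fcer1g. On Ta3 against Ta0, the glass with tantalum against the one without, 0 of 5 and 0.00% of all genes were called. By limma, 462 of the 10858 genes had an unadjusted p under 0.05 there, none of them one of the 5, and voom weights also called 0. All 5 values lay below 0, at -0.43 for Fcgr1, -0.48 for Fcgr2b, -0.41 for Fcgr3, -0.58 for Fcgr4 and -0.52 for Fcer1g, each with an adjusted p of 0.846 in limma, although with libraries set to a common FPKM total Fcgr1 and Fcgr3 were at 0.02 and 0.05. That scaling moved the median of all genes to 0.33, and relative to it Fcgr1 was at -0.31 and Fcgr3 at -0.28. In none of the 4 comparisons did the FPKM of any of the 5 genes separate the surfaces. Of all genes, 11.7% did for Ta3 against cpTi, 16.5% for Ta0 against cpTi, 5.16% for both glasses and 8.97% for Ta3 against Ta0. By share of reads, Fcgr2b lay wholly lower on both glasses (0.0331% to 0.0557%) than on cpTi (0.0583% to 0.0738%). So did Fcgr1 (0.00729% to 0.0124% against 0.0140% to 0.0165%). Fcgr4 did so on Ta3 only (0.00557% to 0.0105% against 0.0108% to 0.0178%), and Fcgr3 and Fcer1g overlapped. The glasses overlapped with each other for all 5 genes by share. How many of all genes separate the surfaces by share of reads was not counted, so how common such a separation is remains unknown. The part of the library scale in this was not tested.

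**Figure D2:**
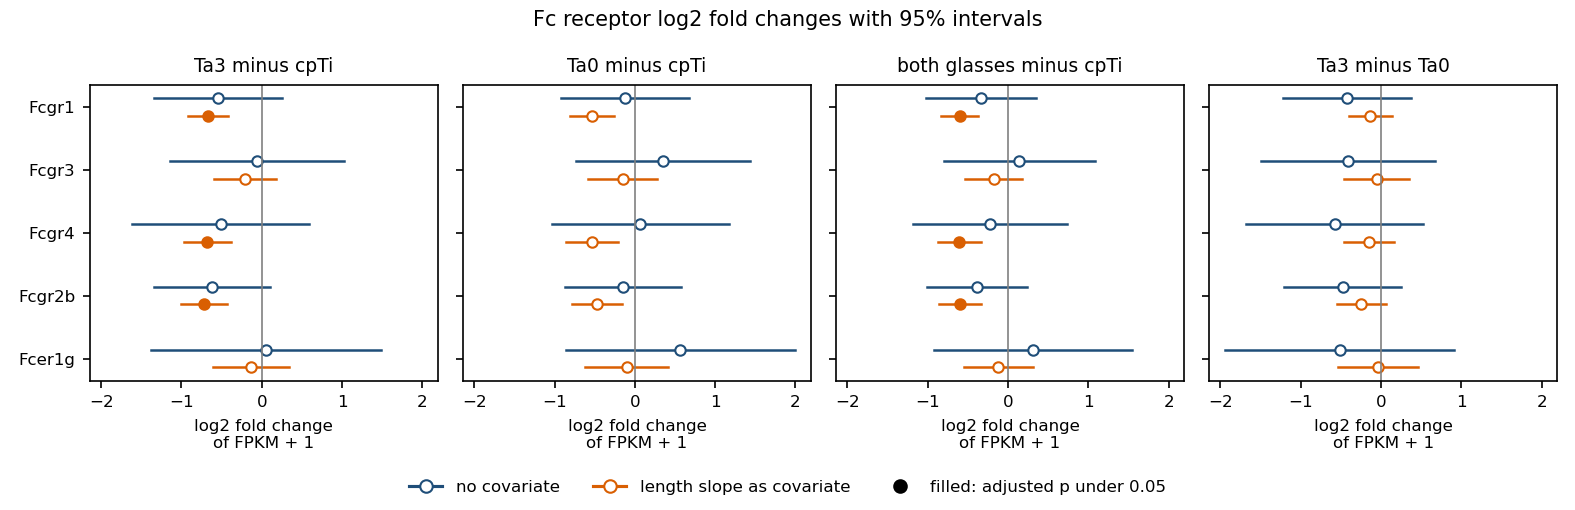
Log2 fold change of FPKM + 1 with 95% intervals for the 5 genes in each comparison, without a covariate (blue) and with the length slope of each library as a covariate (orange); filled points passed an adjusted p of 0.05. Fcgr1, Fcgr2b and Fcgr4 passed on Ta3 and on both glasses pooled, with the covariate only.

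With the length slope of each library as a covariate, 3 of the 5 genes passed on Ta3 against cpTi, all lower on Ta3, while 5.37% of all genes passed and 3.55% passed as lower. The log2 fold change was -0.67 for Fcgr1 (SE 0.11, adjusted p = 0.00937), -0.72 for Fcgr2b (SE 0.13, adjusted p = 0.0122) and -0.68 for Fcgr4 (SE 0.13, adjusted p = 0.0175), in limma. Fcgr3 at -0.21 (adjusted p = 0.496) and Fcer1g at -0.14 (adjusted p = 0.721) did not pass. The same 3 genes passed on both glasses pooled, where 4.38% of all genes passed and 3.06% as lower. Their values there were -0.60 for Fcgr1 (adjusted p = 0.00929), -0.60 for Fcgr2b (adjusted p = 0.0186) and -0.61 for Fcgr4 (adjusted p = 0.0190), in limma. Of the 10 macrophage markers, 3 passed as lower and 1 as higher on Ta3 in the same fit, and 4 as lower and 1 as higher on both glasses. On Ta3 the lower ones were Adgre1 at -0.82 (adjusted p = 0.00540), Cd14 at -0.92 (adjusted p = 0.00734) and Aif1 at -0.95 (adjusted p = 0.00401), in limma, and the higher one was Laptm5 at 0.83 (adjusted p = 0.0137). On both glasses Csf1r joined them at -0.51 (adjusted p = 0.0243). Markers of other lists also passed on Ta3, namely the monocyte markers Ly6c2 at -1.998 and F13a1 at -0.72, the neutrophil marker S100a8 at -1.16 and the dendritic cell marker Itgax at 1.79. The part of these markers in the 3 receptor calls was not tested.

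On Ta0 against cpTi with the covariate, 0 of 5 passed and 2.27% of all genes did. The values were -0.54 for Fcgr1 (adjusted p = 0.0616), -0.53 for Fcgr4 (adjusted p = 0.123) and -0.47 for Fcgr2b (adjusted p = 0.171) in limma, and all 5 lay below 0, with Fcgr3 at -0.15 and Fcer1g at -0.10. On Ta3 against Ta0 with the covariate the 5 values ran from -0.24 for Fcgr2b to -0.04 for Fcer1g, and 0.00% of all genes passed. The covariate was measured on these libraries, and its call of Fcgr1, Fcgr2b and Fcgr4 was the only one among all settings tried. Under the other settings the smallest adjusted p of any of the 5 genes in limma was 0.252. That value came from Ta3 against Ta0 without Ta3 replicate 3, not from a comparison with cpTi.

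A rank within its own library needs no scale between libraries. Fcgr1 stood at ranks 1364, 1712 and 1216 among the tested genes in Ta3 libraries and 1323, 1143 and 1120 in Ta0 libraries, against 880, 902 and 935 in cpTi libraries, where rank 1 is the most abundant gene. Fcgr2b stood at 774, 816 and 882 on Ta3 and 902, 635 and 624 on Ta0, against 476, 495 and 474 on cpTi. Fcgr4 stood at 702, 1061 and 714 on Ta3 and 734, 664 and 565 on Ta0, against 487, 450 and 550 on cpTi. For these 3 genes, all 6 glass libraries ranked below all 3 cpTi libraries, which 3.67% of all tested genes did.

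Fcgr3 stood at 196, 135 and 198 on Ta3 and 274, 126 and 148 on Ta0, against 110, 127 and 113 on cpTi, so that only Ta3 lay wholly below cpTi. Fcer1g stood at 43, 49 and 94 on Ta3 and 51, 49 and 57 on Ta0, against 43, 38 and 42 on cpTi, so that only Ta0 lay wholly below cpTi. In each glass taken alone 4 of the 5 genes ranked wholly below cpTi, where 7.98% of all genes did so on Ta3 and 9.69% on Ta0. The glasses themselves overlapped in rank for all 5 genes (0 of 5, with 4.43% of all genes lower on Ta3). The ribosomal protein share of reads was 2.22% to 16.9% on Ta3 and 7.18% to 18.3% on Ta0, against 3.64% to 7.48% on cpTi, and its part in the ranks was not tested.

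**Figure D3:**
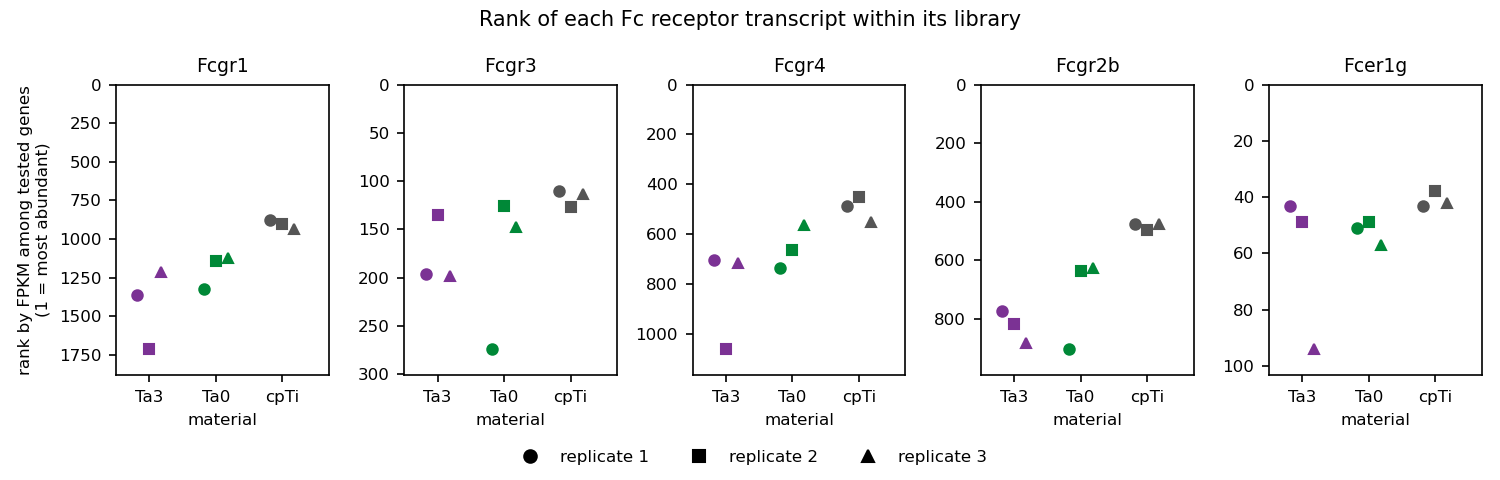
Rank of the 5 genes among all 10858 tested genes of the same library, with rank 1 the most abundant and the axis turned so that higher means more abundant. Fcgr1, Fcgr2b and Fcgr4 ranked lower in all 6 glass libraries than in all 3 cpTi libraries.

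The balance of activating to inhibitory receptor mRNA, the summed FPKM of Fcgr1, Fcgr3 and Fcgr4 over that of Fcgr2b, was 6.45, 6.05 and 9.70 in Ta3 libraries, 7.39, 6.84 and 6.80 in Ta0 libraries and 5.24, 5.63 and 5.03 in cpTi libraries. All 6 glass libraries lay above all 3 cpTi libraries, and Ta3 replicate 3 stood apart at the top. Means were 7.40 ± 2.00 on Ta3, 7.01 ± 0.330 on Ta0 and 5.30 ± 0.304 on cpTi (SD, n = 3 each). The log2 difference from cpTi was 0.45 on Ta3 and 0.40 on Ta0, and between the glasses it was 0.05. With the length slope as a covariate it was 0.40 on Ta3, 0.23 on Ta0 and 0.17 between the glasses. Leaving out 1 library gave -0.16 to 0.18 for the difference between the glasses, so its direction was not settled. No p is given for this ratio, whose genes were chosen with earlier results of these data known.

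Fcgr3 was the largest term of the sum. Fcgr3 over Fcgr2b ran from 4.78 to 7.71 on Ta3 and from 5.17 to 5.48 on Ta0, against 3.63 to 4.02 on cpTi. Fcgr3 over Fcgr1 ran from 9.37 to 12.03 on Ta3 and from 9.54 to 10.4 on Ta0, against 6.79 to 8.05 on cpTi. These were the only 2 of the 10 pairs in which all 6 glass libraries lay apart from all 3 cpTi libraries. Of all genes tested, 13.7% were higher relative to Fcgr2b in all 6 glass libraries than in all 3 cpTi libraries, and 13.04% were higher relative to Fcgr1, so Fcgr3 was 1 of many genes in this. Lying wholly below Fcgr3 in the same way on both glasses was found for 2 of the other 4 genes, Fcgr1 and Fcgr2b, and for 1.77% of all genes tested.

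Other pairs separated Ta3 alone from cpTi. Fcgr3 over Fcgr4 was 4.29 to 6.16 on Ta3 against 3.62 to 4.24 on cpTi, and Fcer1g over Fcgr4 was 12.8 to 15.1 on Ta3 against 9.31 to 9.94 on cpTi. Fcer1g over Fcgr1 and over Fcgr2b separated Ta3 from cpTi as well, and each of these 4 pairs overlapped between Ta0 and cpTi. Relative to Fcer1g, 3 of the other 4 genes lay wholly lower on Ta3, as did 2.60% of all genes. Relative to Fcgr3, 3 of the other 4 did so, as did 2.31% of all genes. Read the other way, such separations were common. Of all genes, 14.89% lay wholly higher on Ta3 relative to Fcgr4, 19.06% relative to Fcgr1 and 23.63% relative to Fcgr2b. Fcgr3 and Fcer1g were thus among many genes in this.

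Pairs within the set of Fcgr1, Fcgr4 and Fcgr2b did not separate. Fcgr2b over Fcgr1 averaged 1.85 on Ta3, 1.90 on Ta0 and 1.92 on cpTi, with overlapping libraries. Fcgr4 over Fcgr1 averaged 1.96 on Ta3, 2.15 on Ta0 and 1.89 on cpTi, with overlap as well.

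**Figure D4:**
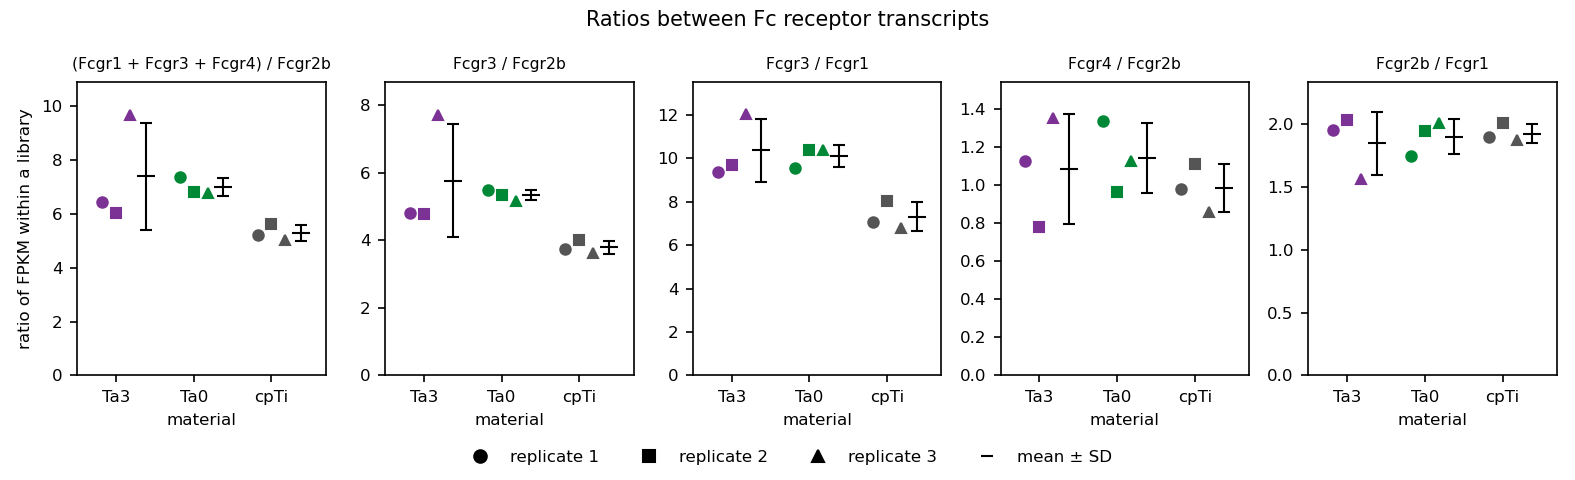
Ratios between the 5 genes in each library (points, with mean and SD), in the order Ta3, Ta0, cpTi. The activating over inhibitory ratio, Fcgr3 over Fcgr2b and Fcgr3 over Fcgr1 were higher in all 6 glass libraries than in all 3 cpTi libraries.

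The likeness of each gene to others was taken as Pearson's r of log2(FPKM + 1) over the 9 libraries, among 5521 protein coding genes with a mean of at least 5 FPKM. These points share surface, depth and library scale, so the values are a description. Fcgr1 was most like Ccl9 (0.986), Gm5150 (0.982) and Slfn2 (0.982), and Fcgr2b most like Cd200r1 (0.977), Vmp1 (0.976) and Ms4a6d (0.976). Fcgr4 was most like Clec4d (0.994), Gm5150 (0.993) and Sirpb1c (0.991). Fcgr3 was most like Akr1c13 (0.993), Sirpb1b (0.990) and Thumpd3 (0.989), and Fcer1g most like AI413582 (0.993), Manf (0.991) and Cdc26 (0.985). Among the 5, Fcgr1 and Fcgr2b had r = 0.968 and Fcgr1 and Fcgr4 had 0.966, against 0.615 for Fcer1g and Fcgr2b.

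The rest of the pathway was followed in 7 lists of 103 genes, of which 85 were tested. In limma 3 of the 85 passed on Ta3 against cpTi, 1 on Ta0, 3 on both glasses pooled and 0 on Ta3 against Ta0, all of them lower on the glass. They were Clec4e, Tarm1 and Pilra.

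Clec4e encodes Mincle, a receptor for microbial glycolipids and dead cells that signals through the Fcer1g chain. It had 43.1, 29.3 and 74.8 FPKM on Ta3 and 68.4, 54.9 and 92.6 FPKM on Ta0, against 343, 528 and 195 FPKM on cpTi, with no overlap. Its log2 fold change was -2.82 (SE 0.46, adjusted p = 0.0461 in limma) on Ta3 and -2.21 (adjusted p = 0.138) on Ta0. Tarm1, a receptor that pairs with the same chain, had 0.550, 0.426 and 0 FPKM on Ta3 and 0.107, 0.319 and 0.592 FPKM on Ta0, against 2.57, 4.11 and 2.76 FPKM on cpTi. It was lower on Ta3 (-1.65, adjusted p = 0.0359) and on Ta0 (-1.63, adjusted p = 0.0328) in limma with the pseudocount of 1. All its glass libraries lay below 1 FPKM, so it passed the filter only through cpTi, where it is high. With no filter its adjusted p in limma was 0.103 on Ta3 and 0.101 on Ta0. For so low a gene the value moved with the scale, and the calls were lost: with a pseudocount of 0.1 it was -3.29 on Ta3 and -3.02 on Ta0 (adjusted p = 0.205 and 0.3005), and with voom on the rebuilt reads -3.75 and -3.24 (adjusted p = 0.208 and 0.321). Pilra, an inhibitory ITIM receptor of myeloid cells, had 4.06, 3.00 and 6.06 FPKM on Ta3 and 5.99, 5.94 and 7.29 FPKM on Ta0, against 17.2, 18.2 and 14.2 FPKM on cpTi. Its log2 fold change was -1.74 (adjusted p = 0.0201 in limma) on Ta3 and -1.24 (adjusted p = 0.0783) on Ta0. Leaving out any 1 of the 9 libraries left 0 to 2 of the 85 genes called on Ta3, 0 to 2 on Ta0 and 0 to 4 on both glasses pooled.

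The partner adaptors and receptors of Fcer1g and Tyrobp had 10 of 13 genes tested, with 2 lower on Ta3, 1 on Ta0 and a median log2 fold change of -0.73 on Ta3, -0.06 on Ta0 and -0.60 between Ta3 and Ta0. The medians over all genes were 0.02, -0.00 and -0.04. Tyrobp, the other ITAM chain of macrophages (DAP12), had 4330 ± 4410 FPKM on Ta3, 4043 ± 1519 on Ta0 and 2019 ± 724 on cpTi, and did not pass. Of 12 tested ITIM receptors of 13, 1 passed as lower on Ta3 and 0 on Ta0, with medians of -0.35 on Ta3 and -0.16 on Ta0.

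The signalling steps behind the receptors did not pass in any of the 4 comparisons. In the activating list 19 of 20 genes were tested and 0 passed, with medians of -0.14 on Ta3 and -0.25 on Ta0. Its member Syk, the kinase that binds the ITAM, had 30.0 ± 10.2 FPKM on Ta3, 21.5 ± 5.13 on Ta0 and 33.7 ± 6.89 on cpTi. Of the Src-family kinases that phosphorylate the ITAM, Lyn had 24.5 ± 3.21 FPKM on Ta3, 22.5 ± 3.56 on Ta0 and 30.1 ± 1.75 on cpTi, and Fgr 22.3 ± 3.21 on Ta3, 20.05 ± 4.49 on Ta0 and 28.5 ± 4.17 on cpTi.

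The inhibitory phosphatases and adaptors had 12 of 12 genes tested and 0 called, with medians of 0.08 on Ta3 and -0.22 on Ta0. Inpp5d, the phosphatase that Fcgr2b recruits, had 12.8 ± 6.43 FPKM on Ta3, 8.82 ± 1.44 on Ta0 and 12.4 ± 5.14 on cpTi. Ptpn6 (SHP-1) had 57.5 ± 7.61 FPKM on Ta3, 56.7 ± 5.45 on Ta0 and 63.5 ± 4.35 on cpTi. The phagocytic cup actin list had 18 of 18 tested and 0 called, with medians of 0.10 on Ta3 and 0.06 on Ta0.

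Other Fc receptor genes were mostly below the filter: 3 of 14 passed it and 0 were called, with medians of -0.11 on Ta3 and -0.23 on Ta0. Fcgrt, the neonatal Fc receptor that recycles IgG, had 9.71 ± 1.05 FPKM on Ta3, 11.4 ± 3.70 on Ta0 and 7.43 ± 1.06 on cpTi. Trim21, the cytosolic IgG receptor, had 3.28 ± 0.503 FPKM on Ta3 and 3.30 ± 0.214 on Ta0, against 4.48 ± 0.370 on cpTi. Known regulators of the genes had 11 of 13 tested and 0 called, with medians of -0.08 on Ta3 and -0.38 on Ta0. Spi1 (PU.1) had 165 ± 33.2 FPKM on Ta3, 158 ± 15.1 on Ta0 and 143 ± 17.9 on cpTi. Irf8 had 24.2 ± 3.99 FPKM on Ta3, 22.4 ± 2.36 on Ta0 and 23.2 ± 1.96 on cpTi. C5ar1, the C5a receptor, had 40.8 ± 14.1 FPKM on Ta3, 29.5 ± 5.67 on Ta0 and 43.3 ± 14.0 on cpTi.

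**Figure D5:**
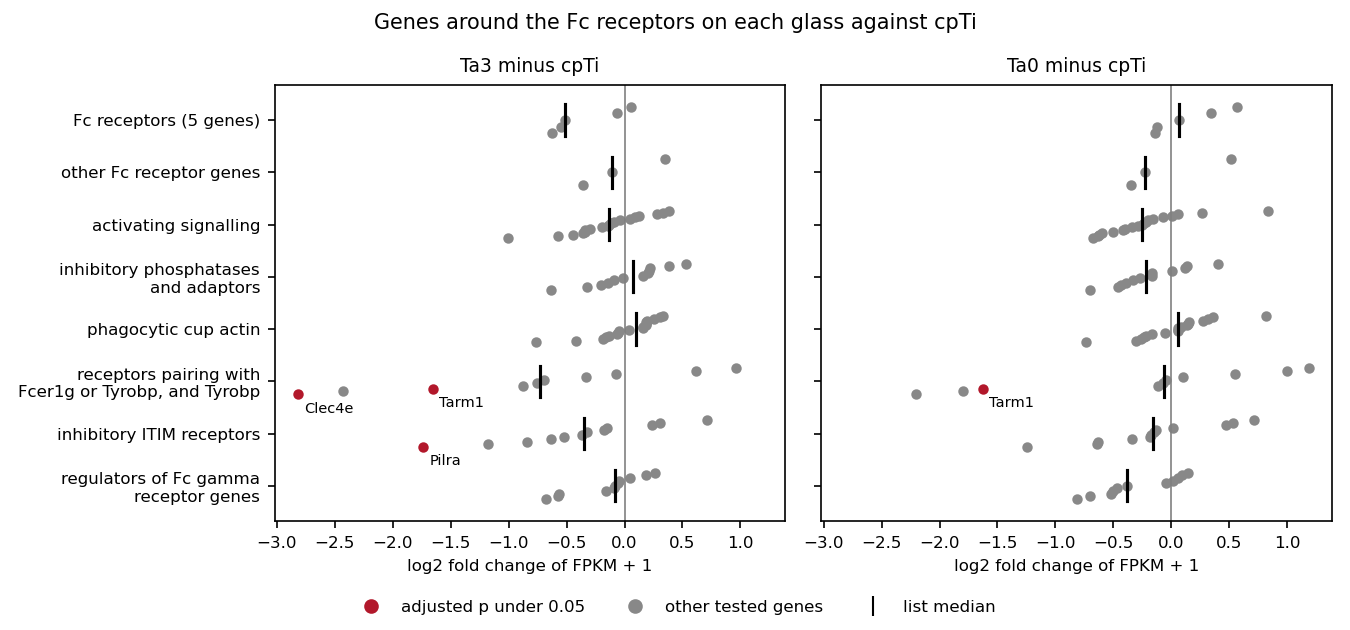
Log2 fold change of FPKM + 1 for every tested gene of the Fc receptor genes and the 7 pathway lists, on Ta3 and on Ta0 against cpTi, with the genes that passed an adjusted p of 0.05 named in red. Clec4e, Tarm1 and Pilra are the only genes that passed, all below 0.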

How the data were processed

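The deposited FPKM table, made by the authors, covers 54532 genes in 9 libraries, 3 per surface. The submitters' processing notes list DESeq2 1.20.0, featureCounts 1.5.0-p3, HISAT2 2.0.5, CASAVA 1.8 and fastp, and GRCm38 (mm10) as the build, without saying what each was used for. The labels' protocols name TRIzol for the RNA and a NEBNext Ultra kit for the libraries. FPKM times gene length came out as whole reads for 100% of values, within 0.05 reads. Every per-sample column could be mapped to a sample. No strand setting is given in the sources used here.

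The 10858 genes that reached 1 FPKM in 3 or more libraries were fitted as log2(FPKM + 1), pseudocount 1, in limma 3.58.1 (R 4.3.3). The model had a mean per surface and a mean-variance trend, and the moderated tests were two-sided. Benjamini-Hochberg adjustment ran over all 10858 genes, with 0.05 as the threshold of a call. The pseudocount makes fold changes of low genes too small. Intervals are at 95%. The fit was tested on simulated data with 200 changed genes. The changes planted there were larger than those of the 5 genes, the spread was capped and no length slope was simulated. That test therefore cannot speak to changes of their size in these libraries. A count-based fit, voom on the rebuilt reads, called 31 genes on Ta3, 35 on Ta0, 76 on both glasses and 0 on Ta3 against Ta0, and 0 of the 5 Fc receptor genes. Its library sizes were the library scale carried by the FPKM, not the rebuilt totals. It is therefore no separate check of that scale.

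The genes, the lists and the settings were chosen with earlier results of these data known. Named besides the 5 genes were genes of a fixed set of pathway genes, some of which are not reported here, from each list at most 3 called genes per direction, taken by lowest adjusted p, and the 3 genes most like each Fc receptor gene. Cell type markers were picked for naming with their values in view, some because they passed or were lower on the glasses. The exact permutation test planned for the activating over inhibitory ratio is not reported, since the ratio is a score over genes chosen in that way. Other settings tried were the pseudocount, the filter, the library scale, the libraries fitted, the trend, voom, the length slope as a covariate, the replicate number as a block and leaving out libraries. Rebuilt totals of 15517877 to 18689963 reads put at least 1027 reads behind each value of the 5 genes, so the spread between libraries limits the precision more than counting does.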

Additional observations from a re-analysis of the deposited data

Results flagged for a closer look

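Among the 6 glass libraries, the activating over inhibitory Fc receptor ratio of Ta3 replicate 3 (9.70) stood far from the nearest other library: that gap was 0.634 of the whole range of the 6, past the limit for a group of this size. The other glass libraries lay between 6.05 and 7.39. Of 6 measures looked at in this way (the 5 genes and the ratio) this was the only one past the limit, and chance puts about 1 in 20 groups past it. Ta3 replicate 3 also had the fewest genes above 0 (13466) and a length slope of -0.21, and their part in the ratio was not tested.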

How the results depend on the processing

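No Fc receptor gene was called in any comparison under any setting but the length slope covariate, which called 3 on Ta3 against cpTi and 3 on both glasses. Of 415 values of the 5 genes under other settings, 376 kept their direction and their side of the threshold, 33 turned direction and 6 newly passed. Of the 33, 8 came from the common FPKM total, which rescales all genes of a library alike, and 6 of these 8 kept their direction relative to the median of all genes. The cause of each shift was not tested.

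The number of genes called moved more. On Ta3 against cpTi (52) it was 29 with a pseudocount of 0.1, 32 with 0.5, 21 with no filter, 28 with a mean of at least 5 FPKM, 11 with a common FPKM total, 7 with only the libraries compared, 31 with voom and 583 with the length slope. On Ta0 against cpTi (46) it was 27 with a pseudocount of 0.1, 28 with no filter, 27 with the higher filter, 11 with a common total and 246 with the length slope. On both glasses (79) it was 46 with no filter, 16 with a common total and 476 with the length slope. Leaving out 1 library gave 8 to 30 genes on Ta3, 7 to 84 on Ta0 and 11 to 101 on both glasses. Leaving out both Ta0 replicate 1 and Ta3 replicate 3, chosen after seeing the data, gave 18 on Ta3 and 20 on Ta0.

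Same-numbered libraries did not vary together as a set: their correlation ran from -0.82 to 0.85 over 9 pairs, with 4 over 0.1. Libraries of unlike number also reached 0.81 (Ta3 replicate 2 with cpTi replicate 3) and 0.80 (Ta3 replicate 3 with cpTi replicate 2). This check therefore cannot show whether same-numbered libraries shared a culture or batch. With the replicate block 4 genes were called on Ta3, 4 on Ta0, 14 on both glasses and 0 on Ta3 against Ta0, and none of the 5 Fc receptor genes.

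Values of the 5 genes that turned direction were these. With a common FPKM total, log2 fold changes were -0.10 for Fcer1g on Ta3, -0.27, -0.55 and -0.051 for Fcgr3, Fcgr4 and Fcer1g on Ta0, -0.24 and -0.077 for Fcgr3 and Fcer1g on both glasses, and 0.022 and 0.052 for Fcgr1 and Fcgr3 on Ta3 against Ta0. That setting moved the median of all genes to -0.09 on Ta3, -0.48 on Ta0, -0.28 on both glasses and 0.33 on Ta3 against Ta0, and relative to it only Fcer1g on Ta3 (-0.01) and Fcgr4 on Ta0 (-0.06) of these 8 turned. With the length slope they were -0.14 for Fcer1g on Ta3, -0.15, -0.53 and -0.10 for Fcgr3, Fcgr4 and Fcer1g on Ta0, and -0.18 and -0.12 for Fcgr3 and Fcer1g on both glasses. With voom Fcgr3 was at 0.0073 on Ta3. Without both libraries named above, Fcer1g was at -0.29 on Ta3 and -0.11 on both glasses, Fcgr4 at -0.09 on Ta0, and Fcgr3 at -0.12 on both glasses, where Fcgr4 kept its direction at -0.505. Leaving out 1 library gave -0.53 to 0.32 for Fcgr3 and -0.29 to 0.49 for Fcer1g on Ta3, -0.29 to 0.030 for Fcgr1, -0.21 to 0.34 for Fcgr4 and -0.33 to 0.041 for Fcgr2b on Ta0, and -0.09 to 0.37 for Fcgr3 and -0.503 to 0.054 for Fcgr4 on both glasses. Fcer1g on both glasses stayed above 0 in these (0.020 to 0.61).

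The log2 activating over inhibitory ratio on Ta0 against cpTi was 0.23 with the length slope, a covariate added for the ratio after seeing the data, against 0.40 without. Leaving out 1 library gave 0.24 to 0.58 on Ta3, 0.37 to 0.45 on Ta0, 0.34 to 0.47 on both glasses and -0.16 to 0.18 on Ta3 against Ta0, and for both glasses 0.43 to 0.57 for Fcgr3 over Fcgr2b and 0.44 to 0.56 for Fcgr3 over Fcgr1. Clec4e, Tarm1 and Pilra stayed below 0 throughout, but on Ta3 Clec4e lost its call in 16 of 21 settings, Tarm1 in 17 of 20 and Pilra in 10 of 21. On Ta0 Tarm1 lost its call in 15 of 20.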
